A study of Mus musculus with 8 samples.

Results

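The BCL2 family sets whether a cell lives or dies through its mitochondria, and 10 of its genes were followed here through cultured mouse regulatory T cells (Tregs). They were taken by name from the deposited expression table, which lists 19703 genes, and each of the 10 names had 1 entry. Of these members, 3 are anti-apoptotic (Bcl2, Bcl2l1 and Mcl1) and 7 are pro-apoptotic: the 2 pore-forming effectors Bax and Bak1 and the 5 BH3-only genes Bcl2l11, Bid, Bad, Bbc3 and Pmaip1. All 10 had a mean normalized count of at least 10 and were tested.

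The cells were wild-type (WT in the titles) Tregs of the Foxp3-GFP mouse strain, in which a green fluorescent protein marks cells that express the Treg factor FOXP3. Every culture was stimulated with CD3/CD28 beads in the presence of 3 cytokines of Th17 differentiation (IL6, IL23 and IL1B), and RNA was sequenced from cells of day 6. One group received nothing further (untreated), and the other received FcCD70, which engages the costimulatory receptor CD27. The labels name 4 samples in each group, and the table used here has a column for 7 of them (4 untreated, 3 FcCD70). In all 8 samples the treatment field names the opposite of the title. Groups were taken from the titles, and if those are wrong each direction given here turns round. No label says whether the replicates are different mice, so the p-values speak for the spread among these libraries, possibly technical spread alone.

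Anti-apoptotic members hold the effectors BAX and BAK1 in check at the mitochondrial outer membrane. BH3-only proteins, switched on by cytokine loss, DNA damage or other stress, occupy the groove of the anti-apoptotic proteins or activate the effectors, which then open the membrane and release cytochrome c. In Tregs, IL-2 signalling maintains the anti-apoptotic side, MCL1 is needed for survival, and BIM, the product of Bcl2l11, drives the loss of cells that are deprived of the cytokine.

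What ties these otherwise different proteins together is the BH3 stretch, the short helix through which family members bind each other. The 36 coding bases around its core are shown for 9 members, because this stretch is the physical basis of the balance described below. They were read from GENCODE M21 transcripts (GRCm38), with the coding strand printed 5′ to 3′. Capitals mark the leucine codon and the last pair of codons of the core, a small residue (glycine, serine or alanine) followed by aspartate.
Bcl2, chr1:106712575-106712610, minus strand: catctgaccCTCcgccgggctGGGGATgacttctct
Bcl2l1, chr2:152829697-152829732, minus strand: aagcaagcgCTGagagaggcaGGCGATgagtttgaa
Mcl1, chr3:95659427-95659462, plus strand: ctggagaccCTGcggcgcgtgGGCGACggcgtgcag
Bax, chr7:45465997-45466032, minus strand: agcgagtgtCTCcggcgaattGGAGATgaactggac
Bak1, chr17:27022531-27022566, minus strand: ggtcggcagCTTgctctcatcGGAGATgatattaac
Bcl2l11, chr2:128147141-128147176, plus strand: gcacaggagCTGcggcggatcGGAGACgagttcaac
Bid, chr6:120897289-120897324, minus strand: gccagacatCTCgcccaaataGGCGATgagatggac
Bad, chr19:6950783-6950818, plus strand: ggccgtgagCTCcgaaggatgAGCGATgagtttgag
Bbc3, chr7:16313764-16313799, plus strand: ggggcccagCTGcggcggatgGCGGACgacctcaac

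The pattern of a leucine, any 3 residues, a small residue and aspartate was found exactly once in the translated transcript of each of these 9 members, on both sides of the balance. In 7 of the 9 the small residue was coded as glycine, while Bad carried serine (AGC) and Bbc3 alanine (GCG).

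Values are the authors' normalized counts, reads per gene divided by a size factor of the library. Libraries held 18159685 to 23527899 reads. The Treg and T cell markers summed to 88442 to 94312 in the untreated libraries and 83601 to 90891 with FcCD70, and the granulocyte genes S100a8, S100a9 and Elane were at 0 in all 7. Among B cell markers Pax5 reached at most 7.94 while Ighm averaged 34381, and its part in the results was not tested. By the mean SD of log2 differences to the other libraries, the FcCD70 library numbered 2 lay farthest (0.609). The FcCD70 library numbered 1 was close behind (0.578), and the rest lay at 0.457 to 0.546. The FcCD70 library numbered 2 stood apart in the length pattern given next and in Foxp3 itself (2788, against 4811 to 6585 elsewhere). Its log2 difference from the untreated library of the same number had a median of 0.34 among genes in the lowest quartile of exon length (up to 2893 bases) and of -0.33 among those in the highest (from 6912 bases). In the pairs numbered 1 and 3 those medians lay between -0.07 and 0.05. Bcl2 and Bcl2l11 belong to the highest length quartile, and Bax, Bak1, Bad, Bbc3 and Pmaip1 to the lowest, so results that rest on that library are given with and without it. The sample titled FcCD70 and numbered 4 has no column of its own. Its values were rebuilt from the authors' mean over 8 libraries and are given beside the others. It entered no test but the alternatives that name it.

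To compare genes with each other, normalized counts were divided by exon length. On this scale Mcl1 stood far above every other member, at 6060 ± 511 (SD, n = 7) normalized counts per kb, higher than 99.1% of the 11083 genes tested. Bax came next with 1466 ± 204, then Bcl2 with 680 ± 216, Bak1 with 560 ± 78.1 and Pmaip1 with 419 ± 108. The lower end held Bcl2l11 with 247 ± 31.5, Bbc3 with 191 ± 34.2, Bcl2l1 with 183 ± 24.2, Bad with 134 ± 12.4 and Bid with 86.1 ± 17.6 (all SD, n = 7). Most neighbours in this order kept their places in every library, or in 6 of 7. The exceptions were Bak1, above Pmaip1 in 5 of 7, and Bbc3, above Bcl2l1 in 3 of 7, so Bbc3 and Bcl2l1 could not be ordered.

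**Figure D1:**
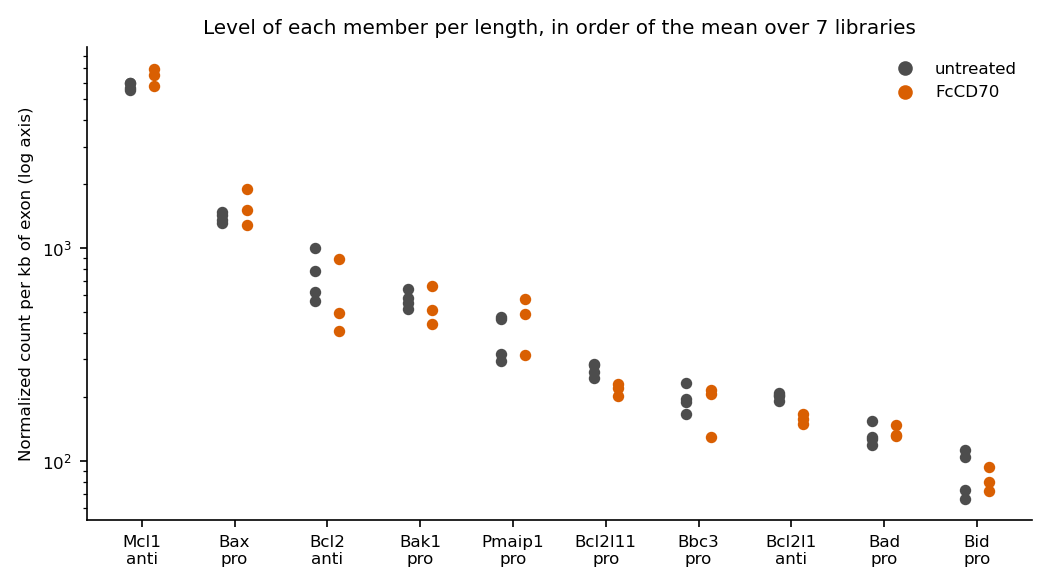
Normalized count per kb of exon (log axis) of each member in each library, untreated in grey and FcCD70 in orange, in order of the mean over 7 libraries. Mcl1 lies above all others at 6060 on average and Bid lies lowest at 86.1.

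Mcl1 alone made up 83.3% to 92.5% of the summed anti-apoptotic level per kb, Bcl2 5.42% to 14.0% and Bcl2l1 2.08% to 3.14%. On the pro-apoptotic side the level was spread more widely. Bax held 44.7% to 52.2%, Bak1 14.2% to 21.2% and Pmaip1 10.1% to 17.5%, and Bcl2l11 held 5.56% to 9.69%. The FcCD70 library numbered 2 alone set the highest share of Mcl1 and Bax and the lowest of Bcl2, Bak1 and Bcl2l11. Without it those ends were 91.0% for Mcl1, 47.9% for Bax, 6.90% for Bcl2, 15.9% for Bak1 and 7.03% for Bcl2l11. The means per kb above include that library too. These are shares of RNA, and protein was not measured.

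Against this background the question was whether FcCD70 shifted the family. No member passed the threshold, an adjusted p under 0.05 in limma's moderated test with Benjamini-Hochberg adjustment over 11083 genes. That test called 0 genes in the whole table (0.0%) and 188 at an unadjusted p under 0.05 (1.7%). edgeR called 0, with 168 at an unadjusted p under 0.05 (1.52%, 3 of them members). DESeq2 called 1 gene (0.00902%), which is no member, with 141 at an unadjusted p under 0.05 (1.27%, 2 of them members). Adjusted p was 0.9998 in limma for each of the 10 members. Of the 10, the 3 members Bcl2l1, Bcl2l11 and Bcl2 had an unadjusted p under 0.05 in limma, and each was the lower with FcCD70. Of all genes, 1.1% were lower and 0.596% higher at that unadjusted level.

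Bcl2l1 (ENSMUSG00000007659, chr2:152780668-152831728, GRCm38, minus strand) encodes the anti-apoptotic protein BCL-XL. Its normalized counts in the untreated libraries numbered 1 to 4 were 956, 935, 873 and 923. The FcCD70 libraries numbered 1 to 3 had 684, 724 and 766. Every FcCD70 value lay below every untreated value, with group means of 922 ± 35.4 (SD, n = 4) and 725 ± 41.4 (SD, n = 3). Of all genes tested, 1.18% were separated in this direction, 1.34% in the other and 2.53% in either. The log2 difference, FcCD70 minus untreated, was -0.35 (SE 0.14, 95% interval -0.66 to -0.04, limma unadjusted p = 0.0325, adjusted p = 0.9998). It was -0.48, -0.37 and -0.19 in the pairs numbered 1, 2 and 3, and -0.38 in the pair numbered 4 with the rebuilt library (708). The same fit without both libraries numbered 2 gave -0.34. Bcl2l1 lies in the third quartile of exon length from the shortest, whose median log2 difference was -0.09 in the pair numbered 2. In the pairs numbered 1 and 3 that median was 0.01. The part of the length pattern in the difference of Bcl2l1 was not tested. In bulk RNA, fewer cells expressing a gene and less of its RNA per cell cannot be told apart.

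Bcl2l11 (ENSMUSG00000027381, chr2:128126038-128162547, plus strand) encodes BIM, a BH3-only protein that binds every anti-apoptotic member, so it stands on the other side of the balance from Bcl2l1. Untreated libraries numbered 1 to 4 had normalized counts of 2264, 2292, 1963 and 2106. With FcCD70 the values were 1856, 1616 and 1773. Here too the groups did not overlap, with means of 2156 ± 153 (SD, n = 4) and 1749 ± 122 (SD, n = 3). The log2 difference was -0.31 (SE 0.13, 95% interval -0.60 to -0.02, limma unadjusted p = 0.0363, adjusted p = 0.9998). By pair it was -0.29, -0.50 and -0.15, and -0.25 with the rebuilt library (1768). The lowest value belonged to the FcCD70 library numbered 2, in which long genes such as Bcl2l11 read low. The same fit without both libraries numbered 2 gave -0.22. In a fit with no block the estimate was -0.30, and -0.25 without that library, and the part of the length pattern in it was not tested.

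Bcl2 (ENSMUSG00000057329, chr1:106538178-106714274, minus strand), the founding anti-apoptotic member, differed more between replicate numbers than between the groups. The untreated libraries numbered 1 to 4 had 5188, 5714, 9166 and 7165 normalized counts. Those with FcCD70, numbered 1 to 3, had 4522, 3747 and 8111. The groups overlapped widely (6809 ± 1780, SD, n = 4, against 5460 ± 2328, SD, n = 3), although in each pair the FcCD70 library was the lower. The paired log2 differences were -0.20, -0.61 and -0.18, and -0.14 with the rebuilt library (6497). Limma with the number as a block gave -0.33 (SE 0.14, 95% interval -0.63 to -0.02, unadjusted p = 0.0383, adjusted p = 0.9998). The same fit without both libraries numbered 2 gave -0.19. In a fit with no block the estimate was -0.36, and -0.13 without the FcCD70 library numbered 2, in which long genes read low. The part of the length pattern in it was not tested.

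These 3 genes were the only members lower with FcCD70 in all 3 pairs, a pattern that 9.61% of all genes tested showed. None was higher in all 3 pairs, against 9.03% of genes. In the authors' deposited table, which rests on 8 libraries, the same 3 members had an unadjusted p under 0.05, against 1.45% of its genes. With the sign turned to FcCD70 minus untreated, the authors' deposited table gives log2 fold changes of -0.36 for Bcl2l1, -0.30 for Bcl2l11 and -0.28 for Bcl2, each with an adjusted p of 0.99999. That table and the values above share their libraries and are no separate support.

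**Figure D2:**
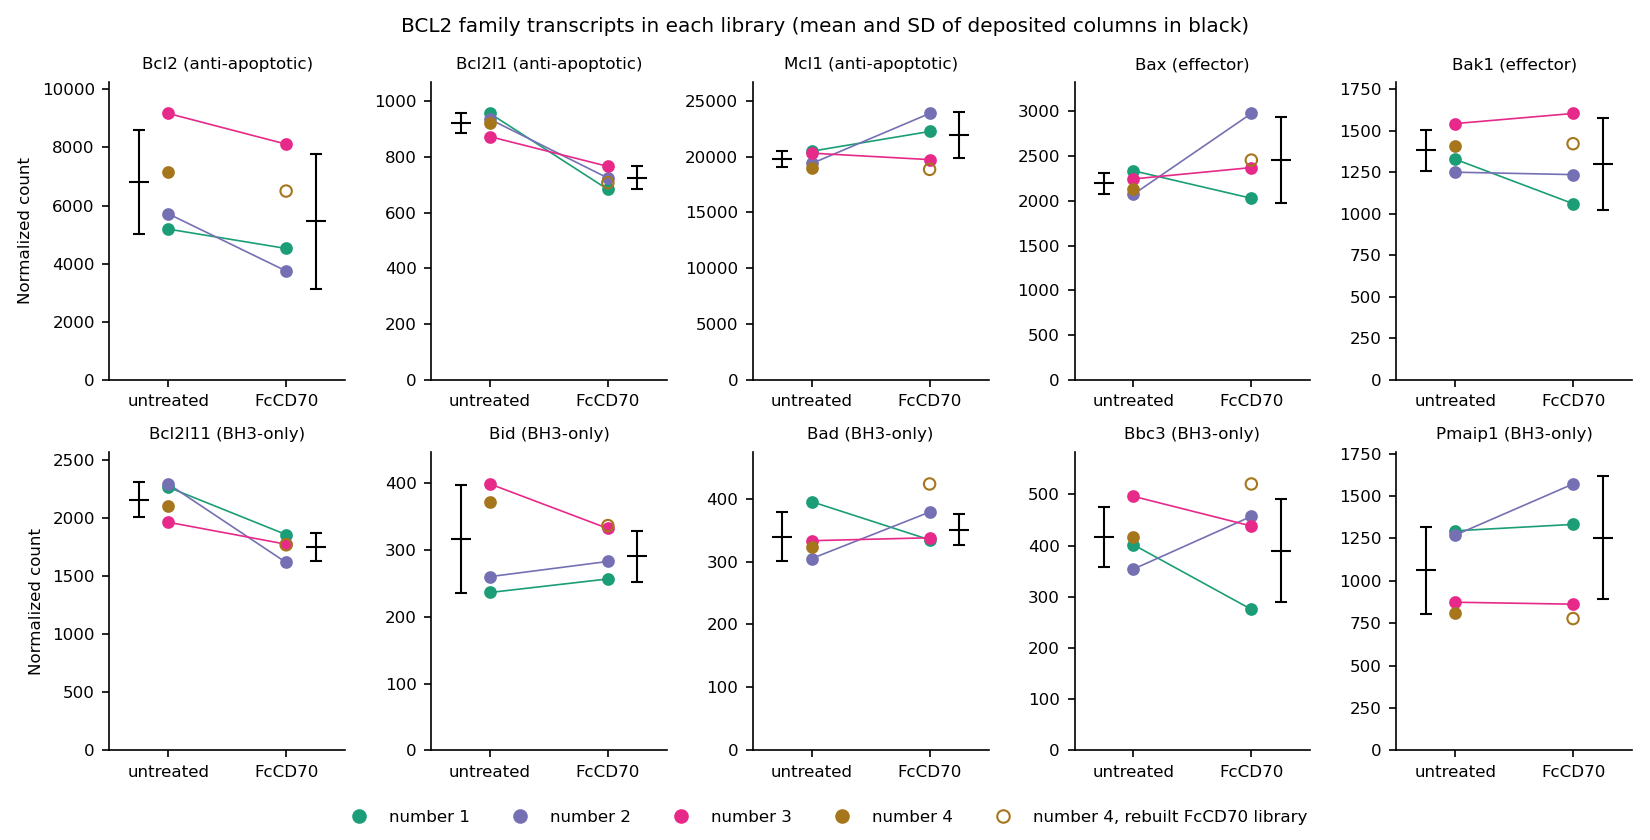
Normalized count of each member in each library, by group, with lines joining libraries of the same number, the mean and SD of each group in black, and the rebuilt FcCD70 library as an open circle. The groups do not overlap for Bcl2l1 (873 to 956 against 684 to 766) and Bcl2l11 (1963 to 2292 against 1616 to 1856), and overlap for the other 8 members.

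Mcl1 (ENSMUSG00000038612, chr3:95658788-95663176, plus strand), a short-lived anti-apoptotic protein that must be made continuously, varied least across the libraries, with a coefficient of variation of 8.43%. The untreated libraries numbered 1 to 4 held 20483, 19384, 20309 and 18964 normalized counts, and the FcCD70 libraries 22250, 23862 and 19730. The 2 highest values were those of the FcCD70 libraries numbered 1 and 2, and the third FcCD70 value lay among the untreated ones. The log2 difference was 0.13, with a 95% interval of -0.21 to 0.46 that reaches from a lower to a higher level. Pairs gave 0.12, 0.30 and -0.04, and the rebuilt library (18856) gave -0.01.

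The effectors are the members that form the pore itself. Bax (ENSMUSG00000003873, chr7:45461697-45466898, minus strand) had 2337, 2075, 2246 and 2131 normalized counts untreated and 2030, 2978 and 2373 with FcCD70. Its highest value belonged to the FcCD70 library numbered 2, in which short genes read high, and its lowest to the FcCD70 library numbered 1. The log2 difference was 0.13 (95% interval -0.21 to 0.47), and without the libraries numbered 2 it turned to -0.06. By pair it was -0.20, 0.52 and 0.08, and 0.21 with the rebuilt library (2457). Bak1 (ENSMUSG00000057789, chr17:27019810-27029009, minus strand), which shares the work of Bax, had 1329, 1251, 1544 and 1407 untreated and 1062, 1237 and 1605 with FcCD70. Both the lowest and the highest of its 7 values lay in the FcCD70 group, and the log2 difference was -0.10 (95% interval -0.40 to 0.21). The pair numbered 1 gave -0.32 and those numbered 2 and 3 -0.02 and 0.06, and without the libraries numbered 1 the estimate was 0.02.

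The other BH3-only members respond to different signals. Pmaip1 (ENSMUSG00000024521, chr18:66458533-66465565, plus strand) encodes NOXA, a p53 target whose main partner is MCL1. It had 1295, 1269, 874 and 809 normalized counts untreated and 1333, 1571 and 862 with FcCD70. As with Bcl2, the libraries numbered 1 and 2 lay apart from those numbered 3 and 4. The log2 difference between the groups was 0.11 (95% interval -0.19 to 0.41). The pair numbered 2 differed by 0.31, and those numbered 1 and 3 by 0.04 and -0.02. Bbc3 (ENSMUSG00000002083, chr7:16308393-16318205, plus strand) encodes PUMA, another p53 target that binds every anti-apoptotic member. Its values were 402, 354, 496 and 417 untreated and 276, 457 and 438 with FcCD70. The FcCD70 library numbered 1 held the lowest, and the log2 difference was -0.12 (95% interval -0.56 to 0.33). Pairs disagreed in sign, with -0.54, 0.37 and -0.18, and the rebuilt library (520) gave 0.32.

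Bid (ENSMUSG00000004446, chr6:120891930-120916853, minus strand) links death receptors to the mitochondria once caspase-8 has cleaved it. Untreated libraries had 237, 260, 399 and 372 normalized counts, and FcCD70 libraries 257, 283 and 332. The untreated group alone spanned the whole range, and the log2 difference was -0.01 (95% interval -0.41 to 0.40). By pair it was 0.12, 0.12 and -0.26, and -0.14 with the rebuilt library (337). Bad (ENSMUSG00000024959, chr19:6941861-6951899, plus strand), whose protein is kept inactive by growth factor and AKT signalling, had 395, 305, 333 and 324 untreated and 335, 379 and 338 with FcCD70. The groups overlapped, with a log2 difference of 0.03 (95% interval -0.37 to 0.43). The pairs gave -0.24, 0.31 and 0.02, and the rebuilt library, with the highest value of all (423), gave 0.39. For Mcl1, Bax, Bak1 and these 4 BH3-only genes the intervals include 0 and also differences as large as that of Bcl2l1 in at least 1 direction, so the data do not show that their levels were equal.

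**Figure D3:**
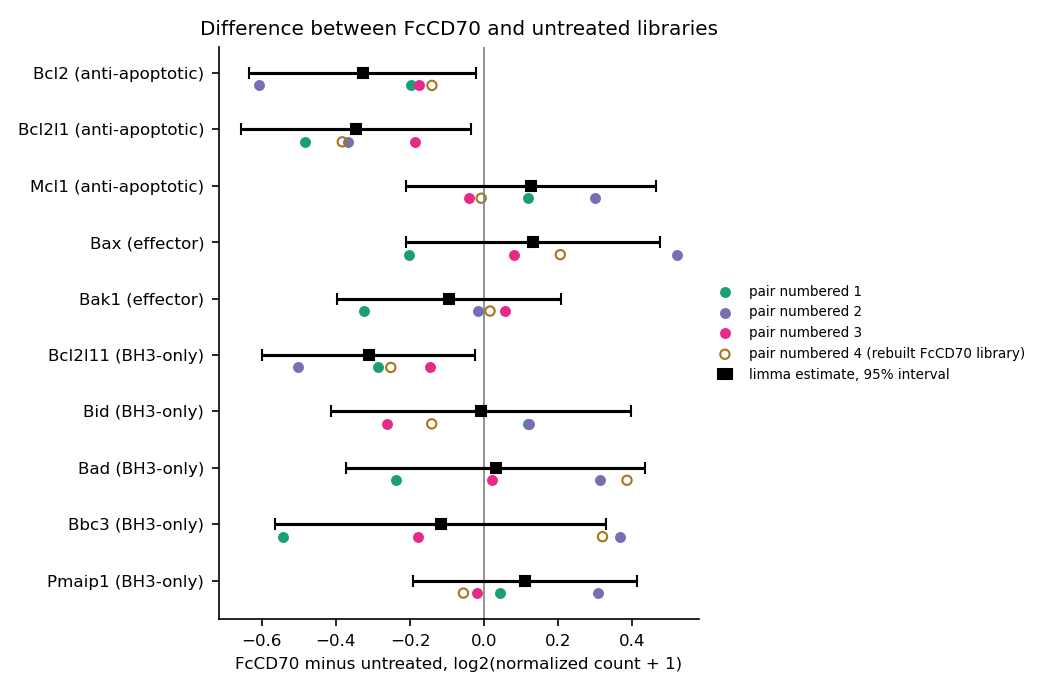
Log2 difference, FcCD70 minus untreated, of each member: squares with lines are limma estimates with 95% intervals, filled circles the 3 same-numbered pairs, and open circles the pair with the rebuilt library. The intervals of Bcl2, Bcl2l1 and Bcl2l11 lie below 0 and the other 7 include it, with no adjustment for the number of genes.

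Over the 10 members 4 differences lay above 0 and 6 below, with a median of -0.05, and over all genes tested the median was -0.0035. The same fit without both libraries numbered 2 gave 0.04 for Mcl1, 0.01 for Pmaip1, -0.13 for Bak1, -0.07 for Bid, -0.36 for Bbc3 and -0.11 for Bad. The 3 anti-apoptotic members had a median of -0.33 with 1 above 0, and the 7 pro-apoptotic members one of -0.0082 with 3 above 0. In 4 members an annotated gene on the opposite strand overlaps the exons (Bcl2 by 558 of 9157 bases, Bak1 by 614 of 2407, Bid by 628 of 3550 and Bad by 524 of 2558), and a gene model on the same strand overlaps Bax by 192 of 1576. Whether counting used the strand is not given in the sources used here, and reads of those stretches may be shared.

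The balance of the family was described in each library as the mean log2 value of the 3 anti-apoptotic members minus that of the 7 pro-apoptotic ones, with no test. It was 2.44, 2.55, 2.64 and 2.60 in the untreated libraries numbered 1 to 4 and 2.46, 2.17 and 2.57 with FcCD70. The FcCD70 library numbered 2 was the lowest, and the other FcCD70 values lay among the untreated ones. Within pairs the differences were 0.02, -0.38 and -0.07, with a mean of -0.15 and an SD of 0.21, larger than the mean itself. The rebuilt library gave -0.25. Without the libraries numbered 2 the mean difference was -0.03, and with the rebuilt library added and the FcCD70 library numbered 2 left out it was -0.10.

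Ratios of single partners were set beside that average. The log2 ratio of Bcl2 to Bcl2l11 differed within pairs by 0.09, -0.11 and -0.03, since the values of both were lower with FcCD70 by like amounts. Bcl2l1 to Bax was -1.29, -1.15, -1.36 and -1.21 in the untreated libraries and -1.57, -2.04 and -1.63 with FcCD70, with no overlap between the groups. That ratio differed by -0.28, -0.89 and -0.27 within pairs and by -0.59 with the rebuilt library. Mcl1 to Bcl2l11, a ratio chosen after its values were seen, ran the other way, from 3.08 to 3.37 untreated and from 3.48 to 3.88 with FcCD70. Within pairs it differed by 0.41, 0.80 and 0.10, and by 0.24 with the rebuilt library. In each of these last ratios the pair numbered 2 differed most, and the ratios set genes of different exon length against each other, which the length pattern of that library touches.

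Mcl1 to Pmaip1, the pair of partners that bind each other most selectively, differed within pairs by 0.08, -0.01 and -0.02. Bcl2 to Bax ran from 1.15 to 2.03 untreated and from 0.33 to 1.77 with FcCD70, so the groups overlapped. Within pairs it differed by 0.005, -1.13 and -0.26. Bcl2l1 to Bcl2l11 overlapped too, at -1.29 to -1.17 untreated and -1.44 to -1.16 with FcCD70. How often ratios of other genes separate the groups was not tested. Per kb, the summed anti-apoptotic level was 2.11 to 2.30 times the summed pro-apoptotic level in the untreated libraries and 2.08 to 2.57 times with FcCD70. The low end with FcCD70 was the library numbered 2, and with it the FcCD70 range enclosed the untreated one. Without that library the FcCD70 values were 2.17 and 2.57, and the rebuilt library had 2.02.

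**Figure D4:**
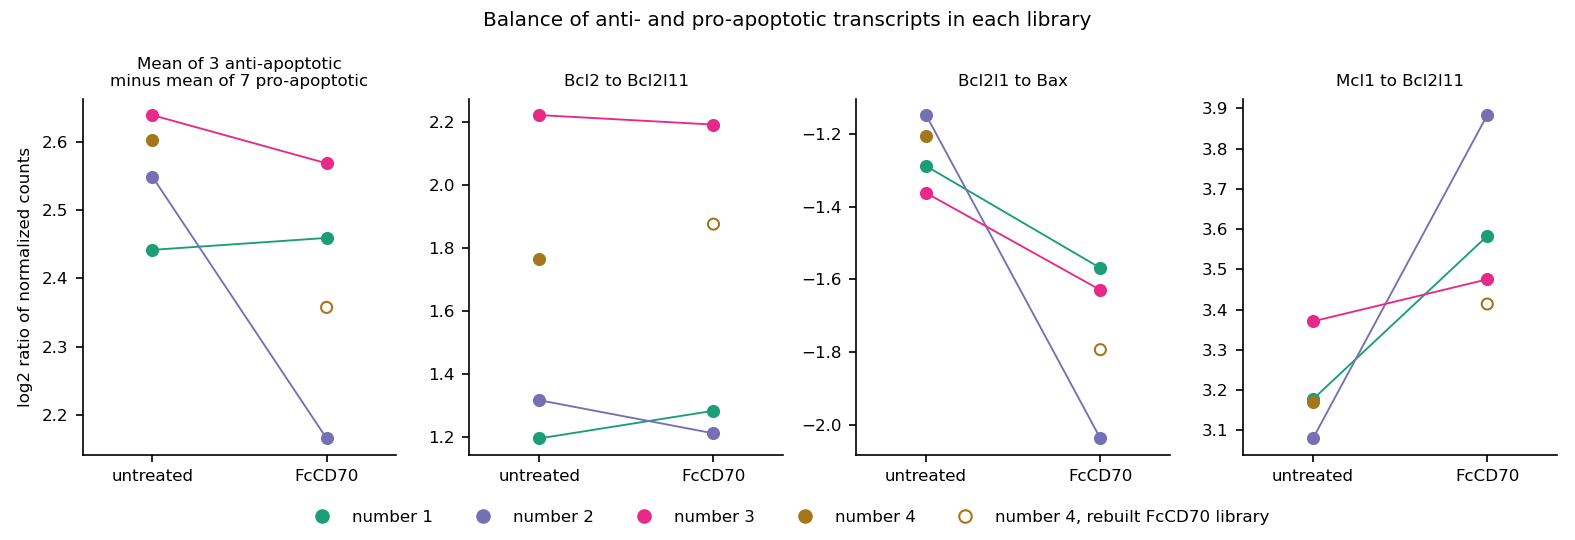
Log2 ratios of normalized counts in each library, by group, with lines joining libraries of the same number: the mean of the anti-apoptotic minus that of the pro-apoptotic members, Bcl2 to Bcl2l11, Bcl2l1 to Bax, and Mcl1 to Bcl2l11. The first 2 overlap between groups and the last 2 do not, with the FcCD70 library numbered 2 at the end of the range in 3 of the 4 panels.

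By replicate number, Bcl2 and Pmaip1 ran in opposite directions. Bcl2 was at 3747 to 5714 normalized counts in the libraries numbered 1 and 2 and at 7165 to 9166 in those numbered 3 and 4. Pmaip1 was at 1269 to 1571 in the former and 809 to 874 in the latter. The rebuilt FcCD70 library numbered 4 lay beside its untreated namesake in both genes, with 6497 for Bcl2 and 778 for Pmaip1. The limma F test between the 4 numbers, with the groups in the model, gave an unadjusted p of 0.00137 for Bcl2 and 0.00372 for Pmaip1. Of all genes 8.02% had an unadjusted p under 0.05 in that test. After Benjamini-Hochberg adjustment limma called 15 genes (0.135%) and no member, with an adjusted p of 0.156 for Bcl2 and 0.227 for Pmaip1. With the rebuilt library added, limma called both (adjusted p = 0.0469 for Bcl2 and 0.0422 for Pmaip1). DESeq2 on the reads of the 7 libraries did so too (adjusted p = 0.000574 and 0.0431), among 237 genes (2.14%), while edgeR called 0 genes.

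What the numbers stand for is not given in the labels. The division of numbers 1 and 2 from 3 and 4 was seen in the data and was not tested. Bid and Bak1 also read higher in the libraries numbered 3 and 4, with an F test unadjusted p of 0.0868 for Bid and 0.137 for Bak1. At the other end, Bcl2l1 had the smallest difference between numbers of the 10 members, with an unadjusted p of 0.999. For Bcl2 to Bcl2l11 the log2 ratio was 1.20 to 1.32 in the libraries numbered 1 and 2 and 1.77 to 2.22 in those numbered 3 and 4, a wider gap than any within a pair.

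**Figure D5:**
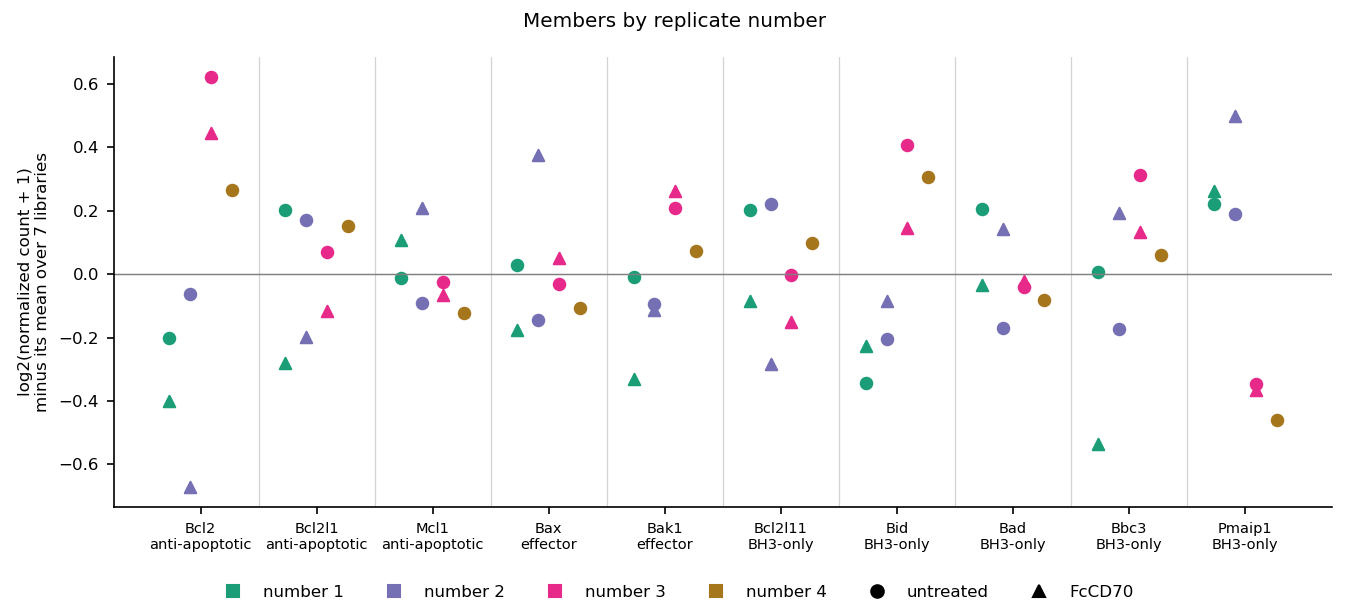
Log2(normalized count + 1) of each member minus its mean over 7 libraries, by replicate number (colour) and group (circles untreated, triangles FcCD70). Bcl2 is high and Pmaip1 low in the libraries numbered 3 and 4, while Bcl2l1 and Bcl2l11 separate by group.

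The promoter of Bcl2l11 is shown because FOXO factors, which IL-2 and AKT signalling keep out of the nucleus, are known activators of this gene. These are the 250 bases before its RefSeq start (GRCm38.p6, chr2:128125788-128126037, plus strand), with capitals on a match to the FOXO sequence TGTTTAC, here read on the opposite strand.
Bcl2l11 promoter: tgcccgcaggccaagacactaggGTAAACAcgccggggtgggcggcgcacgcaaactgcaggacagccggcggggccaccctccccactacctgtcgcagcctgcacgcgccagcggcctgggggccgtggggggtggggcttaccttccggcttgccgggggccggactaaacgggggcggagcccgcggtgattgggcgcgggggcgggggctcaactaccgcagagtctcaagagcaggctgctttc

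The same letters, searched on both strands, occur in 1040 of 32851 promoter windows (3.17%). Of the 9 members searched (all but Pmaip1) Bcl2l11 and Bbc3 held them, each in 1 of its annotated starts. The sequences of STAT and NF-kB factors were searched in the same windows too. None of these 9 members held the STAT letters, which occur in 2306 of the 32851 windows. Bcl2l1 and Bbc3 held the NF-kB letters, each in 1 of its annotated starts, and 1281 of the 32851 windows hold them. A match of letters is a description and no evidence of binding. Transcripts of Foxo1 and Foxo3, which encode such factors, differed by 0.02 (95% interval -0.27 to 0.31) and -0.17 (95% interval -0.46 to 0.11) in log2 value, FcCD70 minus untreated.

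Beyond the 10 members, 9 lists of genes that act with the family held 88 genes, of which 77 were tested and 0 passed the threshold between the groups. In the rest of the anti-apoptotic family only Bcl2l2, which encodes BCL-W, was tested, with a log2 difference of -0.04. Among 7 further pro-apoptotic members 4 lay above and 3 below 0, with a median of 0.01. The mitophagy-linked Bnip3l was the most abundant (4427 normalized counts untreated) and Bik, a BH3-only gene at 40.0 untreated and 51.5 with FcCD70, had the smallest p.

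Downstream of the pore, 15 genes of the apoptosome, the caspases and their mitochondrial partners lay 6 above and 9 below 0, with a median of -0.02. Aifm1, which encodes the mitochondrial flavoprotein AIF, had the smallest p there (log2 difference -0.25), and the channel gene Vdac2 was the most abundant. Of the 5 inhibitors of apoptosis proteins 3 lay above 0, with a median of 0.02. Birc5 of this list was called by the limma F test between replicate numbers (adjusted p = 0.0494), where edgeR called 0 genes. It had 967, 847, 301 and 450 normalized counts untreated and 761, 1056 and 319 with FcCD70. The giant ubiquitin ligase gene Birc6 was low in the FcCD70 library numbered 2, at 5794 normalized counts, while the other 6 libraries held 11303 to 13355.

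Upstream, the death receptor list lay 4 above and 7 below 0 (median -0.08) and the p53 list 6 above and 7 below (median -0.00037). Tnfrsf1a, a TNF receptor gene, and Mdm4, an inhibitor of p53, had the smallest p of these lists, with log2 differences of 0.16 and -0.24. Mdm4 was low in the FcCD70 library numbered 2, at 6346 normalized counts, while the other libraries held 10043 to 11432. The most abundant were Cyld, a deubiquitinase gene, and Trp53inp1, a p53 target, with differences of -0.01 and -0.06. The list of FOXO and stress regulators of BH3-only genes lay 5 above and 2 below 0 (median 0.04).

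Genes that set the stability of the MCL1 and BIM proteins lay 2 above and 5 below 0 (median -0.06). Fbxw7, a ubiquitin ligase subunit that targets MCL1, averaged 944 ± 67.0 (SD, n = 4) in the untreated group and 787 ± 84.1 (SD, n = 3) in the FcCD70 group (normalized counts). The log2 difference was -0.32 (limma unadjusted p = 0.0494, adjusted p = 0.9998). Fbxw7 was the 1 gene of this list with an unadjusted p under 0.05, against 1.7% of all genes. Huwe1, another ligase gene for MCL1, had 8251 in the FcCD70 library numbered 2 and 17407 to 21830 in the others.

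In the list of IL-2 and IL-7 survival signalling 2 genes lay above and 9 below 0, with a median of -0.06. Il7r, the IL-7 receptor chain through which T cells maintain Bcl2, was one of the higher. It had 5211, 6947, 7411 and 7576 normalized counts untreated and 6783, 8846 and 10760 with FcCD70. It was higher in 3 of 3 pairs, as were 9.03% of all genes tested, although the groups overlapped. The log2 difference was 0.42 (95% interval 0.14 to 0.70, limma unadjusted p = 0.00771, adjusted p = 0.9998). Il7r was the 1 gene of this list with an unadjusted p under 0.05 in limma, against 1.7% of all genes. Bcl2 was lower in the same 3 pairs, as were Il2ra, Pim2 and Akt1 of this list and 9.61% of all genes. A link between Il7r and Bcl2 was not tested. Jak1, the kinase that serves both receptors, was the most abundant gene of the list and differed by -0.03.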

How the data were processed

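Illumina TruSeq mRNA libraries, from a kit that marks the strand, were sequenced, per the labels' protocols. The submitters' processing notes list the build GRCm38.p4 and the tools HTSeq, TopHat2, DESeq2 and SAMtools without saying what each did. The library columns of the deposited table are a signal, read counts divided by 1 size factor per library by the authors, as the values show (100% whole multiples of 1 read within 0.01). The table also holds the authors' log2 fold changes, their test statistic (a deposited score) and p-values as deposited. The plan allowed for counts or normalized values. As the values were normalized, limma (3.58.1, with a trend) was run in R 4.3.3 on log2(value + 1) over the 11083 genes with a mean of at least 10. The replicate number was a block, because the authors' table is named as paired, and 2 residual degrees of freedom remain. The estimates rest on the 3 same-numbered pairs, and the untreated library numbered 4 has no partner in them. Calls needed a Benjamini-Hochberg adjusted p under 0.05. Differences on the log2(value + 1) scale are understated for low genes. Reads recovered from the columns went into edgeR (4.0.16) and DESeq2 (1.42.0) as alternatives. Levels per kb used the summed exon length of GENCODE M21 (GRCm38). The rebuilt FcCD70 library is the authors' mean over 8 libraries less the 7 columns.

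Members, gene lists and tests were chosen with earlier results of these data known. All 10 members are named, and from each list the gene with the smallest p and the most abundant one. Any other gene was named with its values in view. The marker lists cover T cells (Treg and CD8), NK cells, B cells, myeloid cells, granulocytes, erythroid cells and platelets, and stroma. The CD8 and NK list summed to 403 to 813 untreated and 520 to 882 with FcCD70, the B cell list to 32885 to 36033 and 32925 to 36996, the myeloid list to at most 33.7, the granulocyte list to at most 2.61, the erythroid and platelet list to 76.4 to 121, and the stromal and epithelial list to 5803 to 8305, mostly Pecam1 (mean 6918). Procedures were tested on simulated data. Alternatives covered the block, pseudocount, filter, scaling, test and libraries. Bcl2a1a to Bcl2a1d, Vdac3 and Stat5a were not analysed here, and no sequence of Pmaip1 is shown. Neither were the myeloid markers Itgam, Itgax and Lyz2 nor the erythroid marker Hbb-bs analysed. The myeloid sum thus rests on 5 of 8 listed genes.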

Additional observations from a re-analysis of the deposited data

How the results depend on the processing

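Over 20 alternatives 0 of the 10 members gained or lost a call between the groups, and 11 of 200 member differences changed sign. Bcl2, Bcl2l1, Bcl2l11 and Mcl1 kept their sign in all 20 (Bcl2 -0.69 to -0.13, Bcl2l1 -0.43 to -0.28, Bcl2l11 -0.39 to -0.22, Mcl1 0.02 to 0.22), and the smallest adjusted p was 0.192 for Bcl2l1. Leaving out the libraries of 1 number at a time, with the replicate block, turned Bax (-0.062 to 0.30), Bak1 (-0.17 to 0.019), Bid (-0.072 to 0.12), Bad (-0.11 to 0.17) and Bbc3 (-0.36 to 0.094): Bax and Bad without replicate 2, Bak1 and Bbc3 without replicate 1, Bid without replicate 3. Without the block, leaving out single libraries turned Bak1 (0.031) and Bbc3 (0.11) without the FcCD70 library numbered 1, Bid (0.026) without the untreated library numbered 3, and Bad (-0.0061, also with the covariate below) without the FcCD70 library numbered 2. Pmaip1 turned (-0.011) with the rebuilt library added and the FcCD70 library numbered 2 left out, a setting chosen after seeing the data. The cause was not tested.

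Genes called in the whole table, 0 in limma, were 1 in DESeq2, 6 without the FcCD70 library numbered 2 and with numbers 1 and 2 against 3 and 4 as a covariate, and 5 with the rebuilt library in its place. Leaving out libraries gave 0 to 19, the highest without replicate 2 (19) and 6 without replicate 3. Members called between numbers were 0 in limma and 2 in DESeq2 and with the rebuilt library. Genes called between numbers, 15 in limma, were 0 with no filter, 7 with TMM scaling, 0 in edgeR, 237 in DESeq2 and 117 with the rebuilt library. The balance differed by -0.25 to -0.03 over its alternatives.

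Same-numbered samples share a number only: their deviations correlated across genes at 0.303, 0.014 and 0.435 for numbers 1 to 3, and not every sample correlated best with its own number. With no replicate block 0 genes were called, and the unadjusted p was 0.00781 for Bcl2l1 (-0.35), 0.0127 for Bcl2l11 (-0.30) and 0.193 for Bcl2 (-0.36). Every member lay far above the 3 reads (2.61 to 3.37 normalized counts) that a count of 0 allows. The precision rests on the 3 same-numbered pairs in the fit with the block and on 7 libraries in the fit without it.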
